A study of Mus musculus with 22 samples.

Results

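The Notch pathway in brain endothelial cells was described through 9 genes, the receptors Notch1 and Notch4, the glycosyltransferase Lfng, the ligands Dll4, Jag1 and Jag2, and the target genes Hes1, Heyl and Nrarp. These were the rows of the deposited expression table with those gene symbols, 9 of 37991 genes, and all of them were measured in all 22 libraries. Notch receptors are bound by ligands on a neighbouring cell, are cut in turn by an ADAM protease and by gamma-secretase, and release an intracellular piece that enters the nucleus, joins the DNA-binding protein RBPJ and switches on Hes, Hey and Nrarp genes. In mouse vessels the pathway is known for restraining sprouting through Dll4 and Notch1, for setting arterial identity, and for contact between endothelial and mural cells through Jag1 and Notch3. Lfng, a Fringe enzyme, adds sugars to the receptors that favour Dll over Jag ligands.

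CD31+ cells, which carry an endothelial surface protein, were sorted from mouse brain and their RNA was sequenced. The activation group (4 libraries) came from C57BL/6 mice labelled CamKIIa-tTA; TRE-hM3Dq, in which the CamKIIa promoter drives tTA in glutamatergic neurons and tTA drives hM3Dq, a designer receptor (DREADD) that excites neurons when bound by the drug CNO. Its activation control group (4 libraries) received CNO too. The silencing group (4 libraries) came from C57BL/6 mice labelled CamKIIa-tTA; TRE-hM4Di, whose receptor inhibits neurons on CNO, and its silencing control group (4 libraries) also received CNO. Cortex and hippocampus were taken 3 hours after CNO. The series text describes the controls as littermates without a DREADD, but their genotype label is that of the mice with the receptor. For the whisker experiment, wild-type C57BL/6 mice used their whiskers to explore an enriched cage in the dark (whisker-plus, 3 libraries), while mice lacking whiskers were kept in an empty cage (whisker-minus, 3 libraries), so that whiskers and environment differed together. Each whisker library pooled 5 pairs of barrel cortices. The labels give no age, and the series text calls the libraries biological samples.

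Levels are given as CPM, a gene's reads scaled to a common library total, and each log2 fold change was computed from log2(CPM + 1) and stands with ± its standard error (SE). A gene was called where the limma p-value, adjusted over all genes tested by the Benjamini-Hochberg method, was under 0.05. Depth was 18387666 to 25163689 reads per library for the activation experiment, 25897142 to 32957916 for silencing and 44187482 to 57673270 for the whisker libraries. Heyl, the least abundant of the 9 genes, had 67 to 934 reads per library, and the others had 560 or more. The 10 endothelial markers were abundant in every library, with Pecam1 at 1771 to 2195 CPM, while the 8 neuronal markers summed to 46.3 to 122 CPM. Mural cell and astrocyte transcripts were present as well, and their sums or differences are given beside several of the results. Fewer cells of a type and less RNA per cell cannot be told apart in these bulk libraries. Silencing control 2 lay further from the rest of its group than the other 3 libraries did, with a median absolute log2 difference of 0.225 against 0.14 to 0.169. Activation control 1 (0.257) and activation control 2 (0.224) also stood apart from activation controls 3 and 4 (0.173 and 0.155). Several results are given with and without these libraries.

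RefSeq promoter sequences (GRCm38.p6, 250 bases before to 50 after the start site) were matched for 7 of the 9 genes, all but Hes1 and Heyl. The 4 shown are those of Notch4 and Jag1, the genes with the largest positive differences after silencing, and those of Lfng and Nrarp, which held a searched motif, marked in capitals. They lie at chr17:34564045-34564344 (plus strand), chr2:137116471-137116770 (minus strand), chr5:140607091-140607390 (plus strand) and chr2:25180508-25180807 (plus strand).
Notch4: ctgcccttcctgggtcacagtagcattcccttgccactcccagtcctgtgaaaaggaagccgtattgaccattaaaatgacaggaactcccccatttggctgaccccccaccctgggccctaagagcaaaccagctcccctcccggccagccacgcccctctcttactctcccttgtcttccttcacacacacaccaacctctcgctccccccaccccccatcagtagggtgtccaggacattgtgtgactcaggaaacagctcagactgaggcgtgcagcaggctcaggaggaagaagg
Jag1: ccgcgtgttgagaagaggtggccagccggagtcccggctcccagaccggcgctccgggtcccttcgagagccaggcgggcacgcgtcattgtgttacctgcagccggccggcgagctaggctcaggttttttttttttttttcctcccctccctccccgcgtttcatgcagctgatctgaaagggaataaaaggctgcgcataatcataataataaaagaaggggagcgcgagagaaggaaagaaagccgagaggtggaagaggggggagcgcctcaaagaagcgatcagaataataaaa
Lfng: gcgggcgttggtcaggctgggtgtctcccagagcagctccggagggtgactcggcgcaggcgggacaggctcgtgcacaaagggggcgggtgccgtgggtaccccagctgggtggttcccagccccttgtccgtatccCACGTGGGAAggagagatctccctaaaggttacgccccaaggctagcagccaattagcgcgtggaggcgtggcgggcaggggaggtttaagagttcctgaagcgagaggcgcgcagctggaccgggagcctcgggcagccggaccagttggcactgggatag
Nrarp: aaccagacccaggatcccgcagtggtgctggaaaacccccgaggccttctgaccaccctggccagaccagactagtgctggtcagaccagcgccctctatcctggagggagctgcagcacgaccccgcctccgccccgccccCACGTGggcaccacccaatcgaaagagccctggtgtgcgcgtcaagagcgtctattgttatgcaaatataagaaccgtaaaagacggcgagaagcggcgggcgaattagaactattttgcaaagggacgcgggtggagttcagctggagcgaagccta
The RBPJ core GTGGGAA and the E box CACGTG, a hexamer bound by several bHLH factors, were searched on both strands. In the Lfng promoter an RBPJ core began at position -109 from the start site and overlapped an E box that began at -112, so that the capitals run over both. The Nrarp promoter held an E box at -108. The promoters of Notch1, Notch4, Dll4, Jag1 and Jag2 held neither motif in this window. Over all 32851 promoters of this length, 6.38% held the RBPJ core and 7.15% the E box. The Jag2 promoter was 86.0% G and C, that of Notch4 58.3% and that of Jag1 55.7%, against a median of 52.7% over all promoters.

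Per kilobase of exon (lengths from GENCODE M21, an annotation of another build than the deposited table), Jag2 and Hes1 were the top pair of the 9 genes in 4 of the 6 groups and Heyl was the lowest in all 6. Notch4 stood above Jag2 in the silencing group and above Hes1 in the whisker-plus group, and Dll4 stood above Notch4 in the activation, activation control and silencing control groups. In the activation group the levels in CPM per kilobase were 115 ± 7.12 for Jag2, 95.6 ± 8.23 for Hes1, 70.0 ± 18.01 for Dll4, 66.2 ± 6.08 for Notch4 and 35.8 ± 3.19 for Notch1 (mean ± SD, n = 4). The levels of the remaining members in CPM per kilobase were 27.4 ± 0.490 for Jag1, 18.9 ± 4.38 for Lfng, 18.4 ± 3.22 for Nrarp and 1.97 ± 0.965 for Heyl. The neighbours Dll4 and Notch4, and Lfng and Nrarp, differed by less than their SD. Of the receptors outside the 9 genes, Notch3 stood at 9.19 ± 4.72 and Notch2 at 2.80 ± 0.522 CPM per kilobase, both below Notch1 and Notch4. Of the other targets, the Hey-family repressor Hey1 reached 44.7 ± 10.9 CPM per kilobase and its relative Hey2 1.00 ± 0.265. Dll1, another Delta ligand, had 3.21 ± 0.459 CPM per kilobase, and Rbpj had 2.31 ± 0.187.

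**Figure D1:**
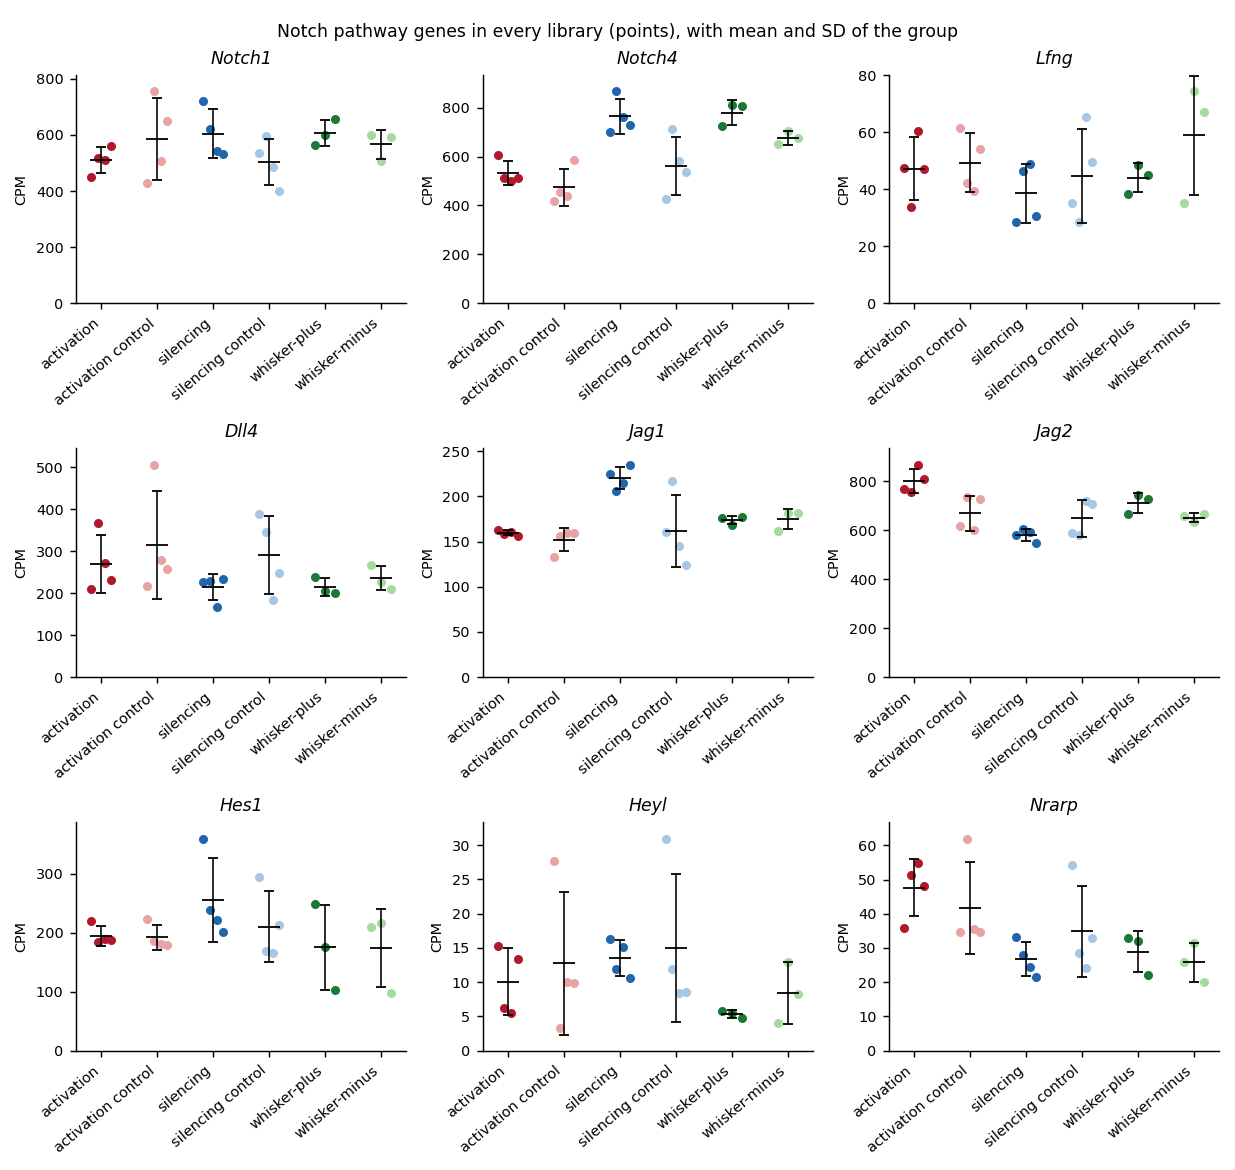
CPM (vertical axis, from 0) of the 9 Notch pathway genes in the 6 groups (horizontal axis). Points are libraries, dashes group means and bars the SD. The 4 silencing libraries of Jag1 sit between 207 and 235 CPM, above 3 of the 4 silencing controls, and the 3 whisker-plus libraries of Notch4 sit above all 3 whisker-minus libraries.

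None of the 9 genes was called by the main limma fit of any comparison, which kept all its libraries and did not pair them. Some alternative limma fits without pairing did call members, and they are given with those genes below. The background was 0.140% of 12872 genes called after activation, 0.177% of 13017 after silencing and 0% of 12776 in the whisker experiment. At an unadjusted p under 0.05, limma gave 1 of the 9 genes after activation (Jag2), 2 after silencing (Notch4 and Jag1) and 1 in the whisker experiment (Notch4), against 11.4%, 16.1% and 13.0% of all genes tested. Of the 9 genes 5 lay above 0 and 4 below in each of these comparisons. Their median log2 fold change was 0.023 after activation, 0.0471 after silencing and 0.00249 in the whisker experiment, beside medians over all genes of -0.00719, -0.0731 and -0.0676. RLE or TMM scaling, which brings the median of all genes near 0, gave 6 above and 3 below in the whisker experiment, since Jag1 changed its sign there. Libraries that shared a replicate number deviated together, and a fit with that number as a replicate block called 1 of the 9 genes, Notch4 in the whisker experiment, against 8.59% of all genes. With the replicate block 1.82% of genes were called after activation and 1.04% after silencing, and none of the 9 was among them.

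**Figure D2:**
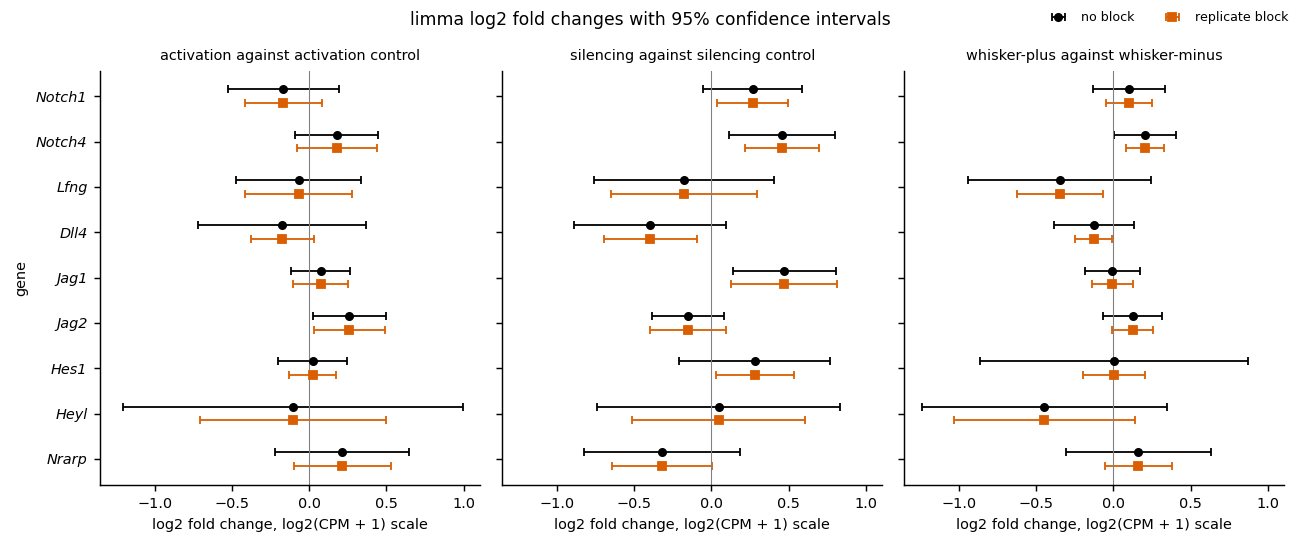
Log2 fold changes (horizontal axis, log2(CPM + 1) scale) of the 9 genes (vertical axis) in each comparison, with 95% confidence intervals, from the fit without the replicate block (black circles) and with it (orange squares). The Notch4 interval lies above 0 after silencing and in the whisker experiment in both fits, and the intervals of Heyl reach from -1.21 to 1.00 after activation.

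Notch4 (ENSMUSG00000015468), a receptor found mainly on endothelial cells, had the largest positive difference of the receptors. After silencing its levels were 701, 865, 759 and 727 CPM, against 425, 711, 581 and 535 CPM in silencing controls. Of the silencing libraries 3 lay above every control, and the lowest was below silencing control 2 and above the remaining controls. The log2 fold change was 0.46 ± 0.15 (95% interval 0.12 to 0.80), with an unadjusted p of 0.0136 and an adjusted p of 0.198 in limma. Without silencing control 2 it was 0.58 ± 0.12 with an adjusted p of 0.019, in a limma fit that called 11.5% of all genes in place of 0.177%. DESeq2 on the recovered reads of the silencing and silencing control libraries, silencing control 2 included, called it with an adjusted p of 0.0442. That DESeq2 fit called 3.54% of all genes.

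Whisker-plus libraries had 723, 812 and 805 CPM of Notch4, against 649.5, 704 and 675 CPM in whisker-minus libraries. All whisker-plus libraries exceeded all whisker-minus libraries, as was so for 5.65% of all genes, and Notch4 alone of the 9 did so. None of the 9 was lower in all whisker-plus libraries, as 13.4% of genes were. The log2 fold change was 0.20 ± 0.09, with an adjusted p of 0.377 in limma without the replicate block, and 0.20 ± 0.06 with an adjusted p of 0.0494 with it. With TMM scaling and the replicate block together, the adjusted p was 0.0536 for a log2 fold change of 0.27 ± 0.07. Leaving out pair 1, 2 or 3 from the blocked fit gave adjusted p-values of 0.0181, 0.126 and 0.374, and the fit without pair 1 called 18.3% of genes and 4 of the 9, Notch1, Notch4, Heyl and Lfng. In the whisker comparison 8 of 8 astrocyte and 9 of 9 smooth muscle markers lay below 0, and 5 of 5 microglia and macrophage markers above. Astrocyte sums were 293 to 320 CPM in whisker-plus libraries, and 292, 1137 and 1007 CPM in whisker-minus 1, 2 and 3. The part of these cells in the whisker values of Notch4 was not tested. After activation Notch4 had 607, 513, 502 and 514 CPM, against 418, 457, 439 and 584 CPM in activation controls. These groups overlapped through activation control 4, and the log2 fold change was 0.18 ± 0.12 (adjusted p = 0.632, limma).

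Notch1 (ENSMUSG00000026923), the receptor through which Dll4 restrains sprouting, showed no called difference in fits that kept all libraries of a comparison. After silencing it had 720.1, 620.4, 543 and 533 CPM, against 535, 595, 484 and 400.2 CPM in silencing controls. Each silencing library was above the control of its own number, but the groups overlapped, with a log2 fold change of 0.27 ± 0.14 (adjusted p = 0.392, limma). After activation Notch1 had 451, 517, 509 and 562 CPM, against 427, 754, 508 and 649 CPM in activation controls. The controls spread more widely than the activation libraries and enclosed them, and the log2 fold change was -0.17 ± 0.16 (adjusted p = 0.758, limma). Without activation control 1 it was -0.31, and without activation control 2 it was -0.03. Whisker-plus libraries had 564, 599 and 657 CPM of Notch1, against 599, 508 and 590.5 CPM in whisker-minus libraries, with a log2 fold change of 0.10 ± 0.10 (adjusted p = 0.742, limma). The ratio of Notch4 to Notch1 CPM within a library, which no scaling can change, averaged 1.28 ± 0.207 after silencing against 1.13 ± 0.234 in silencing controls, and 1.06 ± 0.194 after activation against 0.837 ± 0.162 in activation controls (mean ± SD, n = 4 each). It was 1.29 ± 0.0651 in whisker-plus and 1.20 ± 0.160 in whisker-minus libraries (n = 3 each). The groups overlapped in all 3 experiments, and the ratios were not tested.

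Jag1 (ENSMUSG00000027276), a ligand that counteracts Dll4 in mouse sprouting vessels, was higher on average after silencing by the largest amount among the 9 genes. It had 225, 207, 215 and 235 CPM after silencing, against 161, 217, 145 and 125 CPM in silencing controls. Silencing control 2 fell inside the range of the silencing libraries, and the other 3 controls lay below all of them. The log2 fold change was 0.47 ± 0.15 (95% interval 0.14 to 0.81), with an unadjusted p of 0.0106 and an adjusted p of 0.182 in limma. Without silencing control 2 the log2 fold change was 0.62 ± 0.09 with an adjusted p of 0.00426, and a fit over all 22 libraries gave 0.47 ± 0.11 with an adjusted p of 0.0376, where 1.52% of all genes were called. DESeq2 gave an adjusted p of 0.0806. Leaving out any other single library gave limma adjusted p-values of 0.247 to 0.417. Endothelial markers lay below 0 after silencing in 8 of 10 cases (median log2 fold change -0.0932, none called), beside a median over all genes of -0.0731. Their sums were 16550 to 18561 CPM after silencing and 17489 to 23145 CPM in silencing controls, of which silencing control 2 was the lowest. Markers of pericytes, the mural cells of capillaries, lay above 0 after silencing in 10 of 10 cases (median log2 fold change 0.34, none called). Smooth muscle markers did so in 8 of 9 (median 0.24, none called). Astrocyte markers lay below 0 in 6 of 8 (median -0.286, none called), and silencing control 2 had the highest astrocyte sum of its group, 585 CPM. The part of mural cells and astrocytes in the Jag1 and Notch4 values was not tested.

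After activation Jag1 had 163, 159, 161 and 156 CPM, against 133, 157, 159.7 and 159.6 CPM in activation controls. The 4 activation libraries differed among themselves by only 1.79% (SD over mean), and the log2 fold change was 0.07 ± 0.09 (adjusted p = 0.799, limma), or 0.01 without activation control 1. Jag1 had 176, 169 and 177 CPM in whisker-plus libraries, against 162, 182 and 181 CPM in whisker-minus libraries. The groups overlapped, with a log2 fold change of -0.01 ± 0.08 (adjusted p = 0.983, limma) that became 0.065 with RLE and 0.060 with TMM scaling.

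Dll4 (ENSMUSG00000027314), the Delta ligand of arterial and sprouting endothelium, was lower on average in all 3 experiments, with no call. After silencing it had 228, 229, 168 and 233 CPM, against 388, 346, 185 and 247 CPM in silencing controls. Every silencing library was below the control of its own number, but the lowest control lay below 3 silencing libraries. The log2 fold change was -0.40 ± 0.22 (adjusted p = 0.404, limma), and -0.40 ± 0.13 with the replicate block (adjusted p = 0.173, limma). After activation Dll4 had 209.7, 366, 272 and 231 CPM, against 217, 505, 279 and 257 CPM in activation controls. Library 2 was the highest in both groups, each activation library was below its control of the same number, and the log2 fold change was -0.18 ± 0.25 (adjusted p = 0.838, limma). It was -0.33 without activation control 1 and 0.08 without activation control 2. Dll4 had 239, 204 and 201 CPM in whisker-plus libraries, against 266, 228 and 211 CPM in whisker-minus libraries. The log2 fold change was -0.13 ± 0.11 (adjusted p = 0.697, limma), or -0.055 with RLE and -0.060 with TMM scaling. Here too each whisker-plus library was below the whisker-minus library of its own number. The share of all genes below control in every same-numbered pair was not computed for any experiment. Of all genes, 48.4% lay above 0 after activation, 33.7% after silencing and 36% in the whisker experiment.

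Set against each other within a library, the ligands gave groups that did not overlap after silencing, although no single gene of the 9 separated those groups (2.25% of all genes were higher and 7.30% lower in every silencing library). The ratio of Dll4 to Jag1 CPM was 1.01, 1.11, 0.778 and 0.994 in silencing libraries, against 2.41, 1.59, 1.28 and 1.98 in silencing controls, or 0.973 ± 0.139 and 1.82 ± 0.490 (mean ± SD, n = 4 each). All 4 silencing libraries had a lower ratio than all 4 controls, silencing control 2 included. After activation it averaged 1.69 ± 0.443, against 2.05 ± 0.784 in activation controls, and in the whisker experiment 1.23 ± 0.113 in whisker-plus and 1.35 ± 0.255 in whisker-minus libraries, with overlap in both. These ratios are of read counts not divided by transcript length, and they were described without a test. After silencing the ratio set the largest negative difference of the 9 genes against the largest positive one. The shares of single genes above are no background for a ratio, and the share of gene pairs whose ratio separates the groups was not computed.

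**Figure D3:**
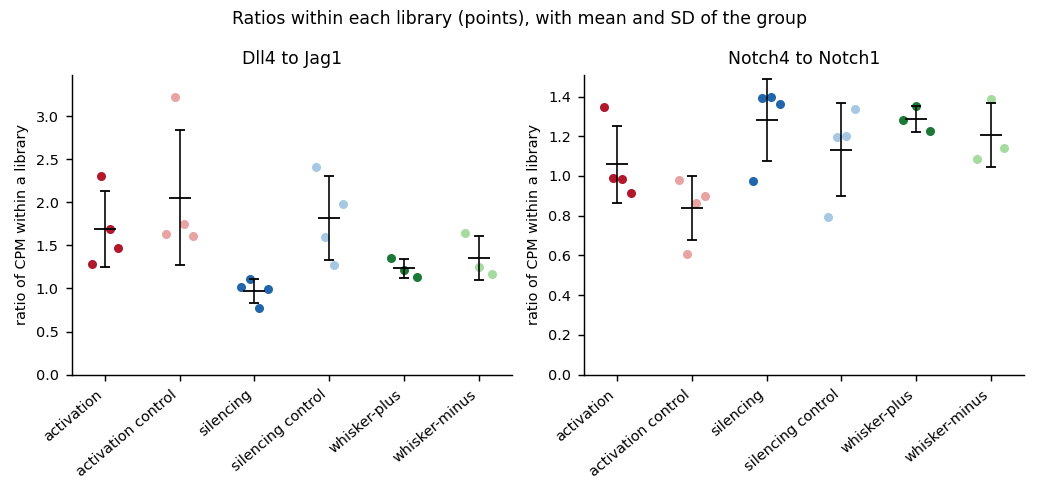
Ratio of CPM within each library (vertical axis, from 0) of Dll4 to Jag1 and of Notch4 to Notch1 in the 6 groups (horizontal axis). Points are libraries, dashes group means and bars the SD. The Dll4 to Jag1 ratio is 0.778 to 1.11 in silencing libraries and 1.28 to 2.41 in silencing controls, and the Notch4 to Notch1 groups overlap in every experiment.

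Jag2 (ENSMUSG00000002799), the Jagged ligand with the highest level here, was the member that separated the activation groups. It had 768, 757, 866 and 808 CPM after activation, against 617, 735, 599.5 and 726 CPM in activation controls. All activation libraries exceeded all controls, as was so for 3.65% of all genes, and Jag2 alone of the 9 did so. None of the 9 was lower in all activation libraries, as 3.50% of genes were. The log2 fold change was 0.26 ± 0.11 (95% interval 0.02 to 0.49), with an unadjusted p of 0.0336 and an adjusted p of 0.382 in limma. Smooth muscle markers (8 of 8 tested, median log2 fold change 0.38) and astrocyte markers (8 of 8, median 0.20) also lay above 0 after activation, with none called. Their sums were 253 to 836 and 224 to 482 CPM in activation libraries, against 220 to 511 and 213 to 367 CPM in activation controls. Activation 3 had the highest Jag2 (866 CPM) and the lowest smooth muscle sum (253 CPM) of its group. The part of these cells in the Jag2 values was not tested. After silencing Jag2 had 580.0, 603, 594 and 547 CPM, against 587, 580.4, 718 and 709 CPM in silencing controls. Controls 3 and 4 lay above every silencing library and the other pair of controls among them, with a log2 fold change of -0.15 ± 0.10 (adjusted p = 0.495, limma). Jag2 had 665, 742 and 729 CPM in whisker-plus libraries, against 657, 633 and 665 CPM in whisker-minus libraries, with a log2 fold change of 0.13 ± 0.08 (adjusted p = 0.578, limma).

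The activation and silencing effects were compared directly in a fit of the 16 DREADD libraries, in which 2.31% of 13464 genes were called and none of the 9. At an unadjusted p under 0.05, limma gave 2 of the 9, Jag2 and Jag1, against 16.7% of all genes. The activation effect minus the silencing effect was 0.41 ± 0.14 for Jag2 (unadjusted p = 0.0105, adjusted p = 0.139, limma) and -0.40 ± 0.18 for Jag1 (unadjusted p = 0.0376, adjusted p = 0.26, limma). It was -0.43 ± 0.23 for Notch1 (adjusted p = 0.367) and 0.54 ± 0.32 for Nrarp (adjusted p = 0.445), both from limma, and the other 5 genes had adjusted p-values of 0.532 to 0.944. Without silencing control 2 the difference for Jag1 was -0.55 ± 0.13 with an adjusted p of 0.0174 in limma, where 6.73% of genes were called. With the replicate block and without silencing pair 2, where 10.3% of genes were called, it was -0.58 ± 0.13 (adjusted p = 0.0183, limma).

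Lfng (ENSMUSG00000029570), the Fringe enzyme whose promoter is shown above, was lower on average in whisker-plus libraries, where it had 38.5, 48.6 and 45.2 CPM, against 35.3, 74.4 and 67.2 CPM in whisker-minus libraries. Whisker-minus 1 was the lowest of all 6 and whisker-minus 2 and 3 the highest, so the groups overlapped, and the log2 fold change was -0.35 ± 0.26 (adjusted p = 0.627, limma). Without whisker-minus 1 it was -0.67 ± 0.13 with an adjusted p of 0.0436 in limma, where 2.67% of genes were called. The summed CPM of 8 astrocyte markers was 293 to 320.1 in whisker-plus libraries, and 292, 1137 and 1007 in whisker-minus 1, 2 and 3. The 9 smooth muscle markers summed to 205 to 544 CPM in whisker-plus libraries, and to 147, 1728 and 609.6 CPM in whisker-minus 1, 2 and 3. The 2 whisker-minus libraries with the high Lfng values were thus those with the high astrocyte and smooth muscle sums, and the part of these cells in the Lfng values was not tested. With the replicate block 6 of the 8 astrocyte markers fell in whisker-plus libraries.

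After silencing Lfng had 28.7, 46.4, 48.8 and 30.7 CPM, against 35.3, 28.5, 65.3 and 49.7 CPM in silencing controls. After activation it had 47.6, 33.8, 60.7 and 47.1 CPM, against 61.6, 42.4, 39.4 and 54.2 CPM in activation controls. Both pairs of groups overlapped, with log2 fold changes of -0.18 ± 0.26 (adjusted p = 0.772) after silencing and -0.07 ± 0.18 (adjusted p = 0.924) after activation in limma. Without replicate 2 in both silencing groups, the blocked fit called Lfng with a log2 fold change of -0.46 ± 0.09 (adjusted p = 0.012, limma), together with Notch1, Notch4 and Jag1, and with 18.4% of all genes.

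Among the targets, Hes1 and Heyl varied more within groups than between them. Hes1 (ENSMUSG00000022528), a bHLH repressor, had 359.6, 238, 221 and 201 CPM after silencing, against 294, 169, 165 and 212 CPM in silencing controls. Library 1 was the highest in both groups, and the log2 fold change was 0.28 ± 0.22 (adjusted p = 0.551, limma). After activation it had 219.8, 184, 188 and 187 CPM, against 223, 186, 180.2 and 179 CPM in activation controls. These groups overlapped, at a log2 fold change of 0.02 ± 0.10 (adjusted p = 0.959, limma). Hes1 had 248, 175 and 103 CPM in whisker-plus libraries, against 209, 216 and 98.1 CPM in whisker-minus libraries, with a log2 fold change of 0.00 ± 0.38 (adjusted p = 0.999, limma). The 95% interval of that difference was -0.87 to 0.87, and -0.20 to 0.20 with the replicate block.

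Heyl (ENSMUSG00000032744), a Hey-family repressor of vascular mural cells, was the lowest and most variable of the 9, at 3.22 to 30.98 CPM over the 22 libraries. It had 16.3, 11.8, 15.2 and 10.7 CPM after silencing, against 30.98, 11.9, 8.37 and 8.53 CPM in silencing controls. It had 15.3, 6.18, 5.53 and 13.3 CPM after activation, against 27.7, 3.22, 10.1 and 9.90 CPM in activation controls. Control 1 was the highest library of both experiments, the groups overlapped, and the log2 fold changes were 0.05 ± 0.35 (adjusted p = 0.961) after silencing and -0.11 ± 0.50 (adjusted p = 0.961) after activation in limma. Whisker-plus libraries had 5.80, 5.44 and 4.76 CPM, against 3.97, 12.97 and 8.21 CPM in whisker-minus libraries, with a log2 fold change of -0.45 ± 0.34 (adjusted p = 0.645, limma).

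The pericyte markers moved with Heyl and Hes1 from library to library, a pattern looked for after the values were seen. The library with the highest Heyl was also the highest in the summed CPM of 10 pericyte markers in 5 of the 6 groups. In the whisker-minus group it had the highest smooth muscle sum, but that sum matched Heyl in only 2 of the 6 groups. Library 1 had the highest pericyte sum in all 6 groups. Same-numbered libraries were taken as paired, so the groups are not independent of each other. Heyl and Hes1 had the same highest library in 6 of 6 groups. The pericyte sum was 1041 to 2471 CPM in silencing and 869.5 to 2802 CPM in silencing control libraries, 786 to 2168 CPM in activation and 801 to 2280.2 CPM in activation control libraries, and 663 to 1051 CPM in whisker-plus and 573 to 1091 CPM in whisker-minus libraries. The mural receptor Notch3, one of the 10, ranged over 61.6 to 138 CPM after silencing and 43.6 to 178 CPM in silencing controls. None of the 10 markers was at 0 in any library, and the share of mural RNA in the Heyl and Hes1 values was not tested.

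**Figure D4:**
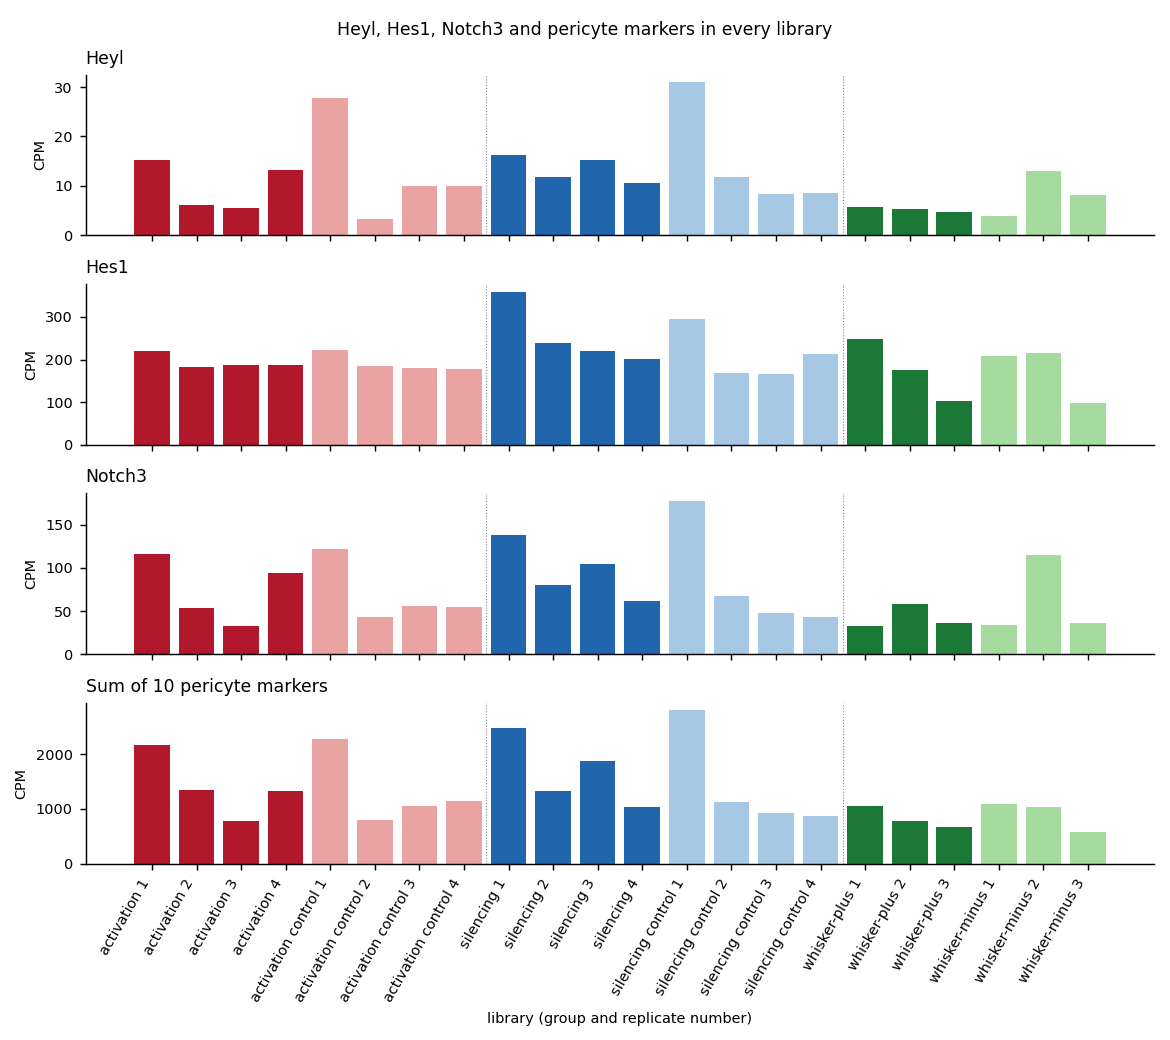
CPM (vertical axes, from 0) of Heyl, Hes1 and Notch3 and the summed CPM of 10 pericyte markers, which include Notch3, in each of the 22 libraries (horizontal axis), coloured by group. Silencing control 1, with 30.98 CPM of Heyl, also has the highest pericyte sum, 2802 CPM.

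Nrarp (ENSMUSG00000078202), a target that feeds back to limit Notch signalling, had 35.8, 51.5, 54.9 and 48.1 CPM after activation, against 34.6, 62.0, 35.6 and 34.6 CPM in activation controls. Control 2 was the highest of the 8 and the other 3 controls the lowest, and the log2 fold change was 0.21 ± 0.20 (adjusted p = 0.734, limma), or 0.42 without activation control 2. After silencing it had 33.2, 28.0, 24.3 and 21.6 CPM, against 54.1, 28.5, 24.1 and 32.9 CPM in silencing controls, with a log2 fold change of -0.32 ± 0.23 (adjusted p = 0.514, limma), or -0.09 without silencing control 1. Nrarp had 32.8, 32.0 and 21.997 CPM in whisker-plus libraries, against 25.8, 31.4 and 20.1 CPM in whisker-minus libraries, with a log2 fold change of 0.16 ± 0.20 (adjusted p = 0.799, limma). Nrarp and Dll4 had the same highest library in the activation control, silencing control and whisker-plus groups, and different ones in the other groups. In the silencing group Dll4 was highest in library 4 (233 CPM), where Nrarp was lowest (21.6 CPM). For a measure of likeness, each library's log2(CPM + 1) was taken relative to the mean of its own control group. The Pearson correlation of Nrarp with Dll4 over the 22 libraries was then 0.667, rank 132 of 10277 genes. Of the other members, Notch1 had the highest correlation with Dll4, 0.284. The lowest were those of Lfng (-0.502, rank 9818) and Notch4 (-0.44, rank 9443). The 5 genes most like Dll4 by this measure were the signalling adaptors Tifa (0.882) and Bcl10 (0.872), the microtubule-severing Katna1 (0.862), the ubiquitin ligase Arih2 (0.86) and the RNA-binding Rbm4b (0.847). Dll4 and Nrarp were both highest of their groups in activation control 2 (505 and 62.0 CPM) and silencing control 1 (388 and 54.1 CPM). The correlation of Nrarp with Dll4 without these libraries was not computed. Libraries fall into groups and were taken relative to shared control means, so these correlations are descriptions.

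Of 57 further pathway genes, fixed as a list by role, 50 or 51 passed the filter in each comparison. The main limma fit, without the replicate block, called none of them after activation, after silencing or in the whisker experiment. At an unadjusted p under 0.05, limma gave 1 above and 5 below 0 after activation, 1 and 5 after silencing, and 2 and 8 in the whisker experiment, while 11.4%, 16.1% and 13.0% of all genes tested passed in either direction. Their median log2 fold changes were -0.061, -0.0399 and -0.0747, beside the medians over all genes of -0.00719, -0.0731 and -0.0676 in the same comparisons. After silencing 9 of the 10 genes of receptor cleavage, 4 of 4 glycosyltransferases and 8 of 14 trafficking and turnover genes lay below 0. Above 0 lay 3 of 4 other receptors and ligands, 2 of 3 other targets and 9 of 16 nuclear complex genes. Of all genes, 33.7% lay above 0 in this comparison, and no gene of these roles was called. Kat2a, a histone acetyltransferase found in Notch coactivator complexes, had the largest difference of the listed genes between the activation and silencing effects. It averaged 60.9 ± 3.99 CPM after activation against 43.7 ± 1.82 CPM in activation controls, and 37.9 ± 2.11 CPM after silencing against 49.1 ± 8.11 CPM in silencing controls (mean ± SD, n = 4 each). The log2 fold changes were 0.47 ± 0.09 after activation (limma adjusted p = 0.0836, and 0.0338 with the replicate block, where 1.82% of all genes were called) and -0.35 ± 0.12 after silencing (limma adjusted p = 0.201). Without silencing control 2 the value after silencing was -0.45 ± 0.09 (limma adjusted p = 0.0136), in a fit that called 11.5% of all genes. The blocked call after activation was lost with TMM scaling (adjusted p = 0.0545, limma) and on leaving out any 1 pair (0.0695 to 0.176). Without the block, Kat2a was called after activation by DESeq2 (adjusted p = 0.000931) and in the limma fit of all 22 libraries (adjusted p = 0.0158). Both of these fits called more genes than the main limma fit did. The difference of the effects was 0.82 ± 0.14 and was called with an adjusted p of 0.00882 in limma, the only call among the 51 genes of the list tested without the replicate block, where 2.31% of all genes were called. With the block 6.35% of all genes were called for this difference. Among them were the corepressor Ctbp2 at 0.70 ± 0.14 (adjusted p = 0.0165, limma) and Kat2b, the close relative of Kat2a, at -0.42 ± 0.11 (adjusted p = 0.0396, limma). On leaving out 1 pair, Ctbp2 had limma adjusted p-values of 0.00764 to 0.0564 and Kat2b of 0.0359 to 0.107.

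With the replicate block 3 of the 50 genes of the list tested in the whisker experiment fell. Of all genes, 8.59% were called with the block in either direction. The main limma fit, without the block, called none of the 3, while DESeq2 called Pofut1 (adjusted p = 0.034). Pofut1, the enzyme that puts the fucose on Notch to which Fringe enzymes add, averaged 55.2 ± 2.31 CPM in whisker-plus against 73.1 ± 2.24 CPM in whisker-minus libraries (SD, n = 3 each), with a log2 fold change of -0.40 ± 0.07 (limma adjusted p = 0.0121 with the block, 0.197 without). Ncstn, a subunit of gamma-secretase, averaged 96.2 ± 3.27 CPM against 112 ± 2.47 CPM in whisker-minus libraries, with a log2 fold change of -0.22 ± 0.06 (limma adjusted p = 0.0465 with the block, 0.292 without). Dtx3, a ubiquitin ligase of the Deltex family, averaged 36.9 ± 3.81 CPM against 52.9 ± 9.53 CPM in whisker-minus libraries, with a log2 fold change of -0.50 ± 0.10 (limma adjusted p = 0.0202 with the block, 0.257 without). Without pair 3 the blocked fit called none of them, with limma adjusted p-values of 0.205 for Pofut1, 0.337 for Ncstn and 0.274 for Dtx3. Ncstn was also not called without pair 2 (0.106) or with TMM scaling and the block (-0.15, adjusted p = 0.149, limma). All 8 astrocyte markers lay below 0 in the same comparison (8 of 8, median log2 fold change -1.18), and their part in these 3 genes was not tested. Of the other named genes, Notch2, Notch3, Dll1, Hey1, Hey2 and Rbpj had adjusted p-values of 0.492 or more in the 4 limma fits without the block.

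**Figure D5:**
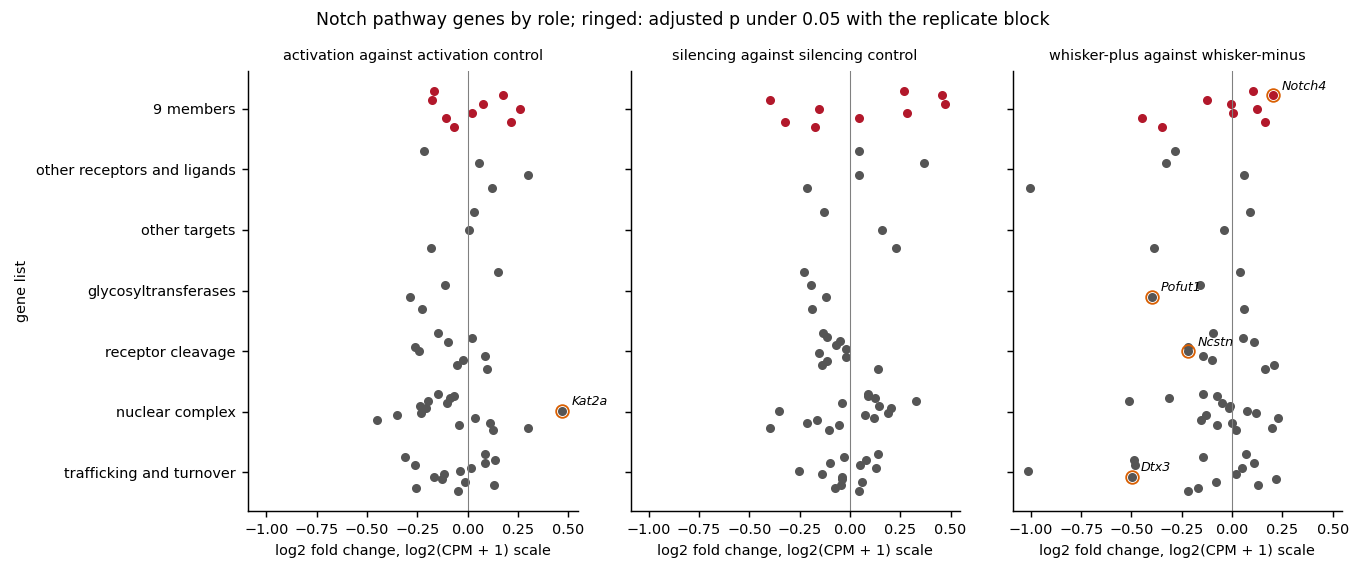
Log2 fold changes (horizontal axis, log2(CPM + 1) scale) of the 9 members (red) and of the other pathway genes that passed the filter (grey), grouped by role (vertical axis), in each comparison. Orange rings mark genes with an adjusted p under 0.05 in the limma fit with the replicate block, and none is ringed after silencing.

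The authors' deposited table, whose header names an unadjusted p and a minimum level of 10 CPM as the rule for its marks, marked 3 of the 9 genes as higher after silencing. Among the 8985 genes with a mean over 10 CPM in either group, which include all 9, the authors' deposited table marked 14.7% after silencing, in either direction. These marks in the authors' deposited table were on Notch1 (p = 0.0334, FDR 0.333), Notch4 (p = 0.00151, FDR 0.0484) and Jag1 (p = 0.00293, FDR 0.0764). In the whisker experiment the authors' deposited table marked 2 of the 9 as higher in whisker-plus, Notch4 with a log2 fold change of 0.27 (FDR 0.126) and Jag2 with 0.20 (FDR 0.366). That was 2 of the 8 members over this level, against 13.7% of 9021 such genes in the authors' deposited table. It marked none of the 9 after activation, where the authors' deposited table marked 15.4% of 8917 such genes.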

How the data were processed

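CPM values for 37991 genes in 22 libraries were deposited by the authors in 1 table, per the file headers, which also name the authors' log2 fold changes, the p-values and the FDR. Per the submitters' processing notes, the build was mm9 and the tools included HTSeq 0.6.1, TopHat2 2.0.11, SAMtools 0.1.19, Bowtie2 2.2.1 and DESeq2. The treatment of strand and overlapping genes in counting is not given in those sources. Groups and replicate numbers came from the sample titles. The deposited CPM were whole multiples of 1 read for 100% of values (within 0.01 read), which gave back the read counts used for depth and count tests. 

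A gene was tested if it reached 1 CPM in a number of libraries equal to the size of the smaller group, with limma 3.58.1 (R 4.3.3, mean-variance trend) on log2(CPM + 1), on the libraries of each comparison alone. On this scale the fold changes of low genes are understated. Of the methods, limma without the replicate block and edgeR were tried on simulated counts with a fixed dispersion and no pairing. The blocked fit and DESeq2 were not tried on simulated counts. The alternatives tried were no filter, a pseudocount of 0.1, TMM and RLE scaling, all 22 libraries in 1 fit, a replicate block, each library or pair left out, edgeR 4.0.16 and DESeq2 1.42.0. On the recovered reads edgeR called 2 genes after activation, 24 after silencing, 0 in the whisker experiment and 295 for the difference of effects, and DESeq2 called 374, 461, 406 and 760. TMM scaling joined with the replicate block was added after seeing the data.

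Same-numbered libraries deviated from their group means together, with correlations over genes of 0.28 to 0.45 in the activation, 0.14 to 0.60 in the silencing and 0.46 to 0.62 in the whisker experiment. They were taken as paired on this evidence from the data, since the labels do not explain the numbers. The 9 genes, the gene lists and the markers were chosen with earlier results of these data known. Always named were the 9 genes and Notch2, Notch3, Dll1, Hey1, Hey2 and Rbpj. Of the other pathway genes, those with an adjusted p under 0.05 with or without the block were named (at most 4 per direction), or else the 1 with the smallest p. Where none passed after silencing, that gene was Kat2a. Likeness to Dll4 was ranked over genes with a mean of at least 5 CPM. p-values measure the spread between these libraries. Promoters came from RefSeq tables of GRCm38.p6, and no mm9 coordinates are given. Columns of group means were not used.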

Additional observations from a re-analysis of the deposited data

Results flagged for a closer look

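In groups of 4 libraries, Dixon's test for the highest or lowest value flagged 9 of the 44 sets of values examined, where chance flags about 1 in 20. Among the receptors and ligands, the single libraries were Notch4 in activation 1 (607 CPM, above its group), Dll4 in silencing 3 (168 CPM, below its group) and Jag1 in activation control 1 (133 CPM, below its group). Among the targets they were Hes1 in activation 1 (219.8 CPM) and in activation control 1 (223 CPM), Heyl in silencing control 1 (30.98 CPM) and Nrarp in activation control 2 (62.0 CPM), all above their groups. The ratio of Notch4 to Notch1 was set apart in silencing 1 (0.974, below its group), and that of Dll4 to Jag1 in activation control 2 (3.23, above its group). The 9 values fell on 6 libraries, and 4 of them were in activation controls, those of Hes1 and Jag1 in activation control 1 and those of Nrarp and the Dll4 to Jag1 ratio in activation control 2.

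Kat2a differed between the activation and silencing effects by 0.82 on the log2 scale (adjusted p = 0.00882, limma), above its control mean in the activation experiment and below it in the silencing experiment. Over the alternatives that leave out a library its difference was 0.74 to 0.92.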

How the results depend on the processing

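Of 36 differences of the 9 genes over the 4 comparisons, 26 kept their sign under every alternative run, and 50 of 837 alternatives turned a sign, with the cause not tested. In the whisker experiment Jag1 became 0.0651 with RLE, 0.0599 with TMM (also with the replicate block), 0.0597 with edgeR and 0.0657 with DESeq2, and after silencing Heyl became -0.0718 with edgeR and -0.0664 with DESeq2. On leaving out 1 library, the values after activation ranged from -0.334 to 0.0773 for Dll4, -0.036 to 0.0972 for Hes1, -0.566 to 0.356 for Heyl and -0.196 to 0.0789 for Lfng. After silencing they ranged from -0.141 to 0.45 for Heyl and -0.363 to 0.0262 for Lfng, and in the whisker experiment from -0.367 to 0.339 for Hes1 and -0.0603 to 0.0209 for Jag1. For the difference of effects they ranged from -0.613 to 0.309 for Heyl and -0.0953 to 0.294 for Lfng. Differences that kept their sign without 1 library but moved by over 1.5 times were, after activation, -0.307 to -0.034 for Notch1, 0.115 to 0.281 for Notch4, 0.0106 to 0.098 for Jag1 and 0.141 to 0.417 for Nrarp. After silencing they were 0.162 to 0.352 for Notch1, -0.595 to -0.239 for Dll4, -0.203 to -0.101 for Jag2, 0.105 to 0.457 for Hes1 and -0.471 to -0.0919 for Nrarp. In the whisker experiment they were 0.0258 to 0.153 for Notch1, -0.205 to -0.0329 for Dll4, -0.845 to -0.0998 for Heyl, 0.00239 to 0.342 for Nrarp and -0.675 to -0.148 for Lfng. For the difference of effects they were -0.401 to -0.154 for Notch4, 0.0617 to 0.473 for Dll4, -0.434 to -0.0815 for Hes1 and 0.307 to 0.738 for Nrarp. With the replicate block and 1 pair left out, the turned values after activation were 0.133 and 0.112 for Heyl and 0.0292 and 0.0148 for Lfng. After silencing they were -0.200 and -0.0341 for Heyl, and in the whisker experiment -0.119 and -0.0304 for Hes1 and 0.0425 and 0.00504 for Jag1. For the difference of effects they were 0.0854, 0.0651 and 0.0938 for Heyl and -0.119 and -0.0618 for Lfng.

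The number of genes called moved with the settings. After activation 18 genes were called, against 0 with RLE, TMM or no filter, 6 with a pseudocount of 0.1, 243 with all 22 libraries, 234 with the replicate block, 137 with TMM and the block, 2 with edgeR and 374 with DESeq2. It was 0 to 8 without 1 library, and 5, 46, 10 and 50 with the block and without pair 1, 2, 3 or 4. After silencing 23 were called, against 35 with TMM, 7 with no filter, 14 with a pseudocount of 0.1, 211 with all 22 libraries, 136 with the replicate block, 134 with TMM and the block and 461 with DESeq2. It was 0 to 1504 without 1 library, the highest without silencing control 2, and 2399 with the block and without pair 2 but 0 without any other pair. In the whisker experiment limma called 0 (1656 at an unadjusted p under 0.05), against 1097 with the replicate block, 848 with TMM and the block and 406 with DESeq2. It was 0 to 352 without 1 library, the highest without whisker-minus 1, and 2381, 689 and 1 with the block and without pair 1, 2 or 3. For the difference of effects 311 were called, against 111 with no filter, 531 with all 22 libraries, 855 with the replicate block, 839 with TMM and the block and 760 with DESeq2. It was 85 to 915 without 1 library, and with the block 912, 576, 279 and 383 without activation pair 1, 2, 3 or 4 and 396, 1392, 303 and 301 without silencing pair 1, 2, 3 or 4.

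Of the 9 genes, limma called 1 after silencing with all 22 libraries (Jag1), DESeq2 1 (Notch4), 0 to 2 were called without 1 library, and 4 with the block and without pair 2. In the whisker experiment 1 was called with the replicate block, 0 to 1 without 1 library, and 4 with the block and without pair 1 (Notch1, Notch4, Heyl and Lfng). For the difference of effects it was 0 to 1 without 1 library and 1 (Jag1) with the block and without silencing pair 2. The replicate block changed no other call among the 9 genes. Depth limits Heyl most, at 67 reads in its lowest library.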
